A study of Mus musculus with 15 samples.

Results

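The Fc and complement receptor genes of the RAW 264.7 macrophage were followed through saturation with 4 kinds of silica nanoparticle (SNP). The group was set by gene name and holds 10 of the 57186 genes in the count table. It and the related lists below were chosen with earlier results of these data known. Their counts of called genes, set beside the shares over all genes, are therefore descriptions and not a test of the set. Fcgr1, Fcgr2b, Fcgr3 and Fcgr4 encode the IgG receptors, Fcer1g encodes the common gamma chain, Itgam, Itgax and Itgb2 encode the chains of the complement integrins, and C5ar1 and C3ar1 encode the anaphylatoxin receptors. All 10 passed the requirement of at least 10 counts summed over the 15 libraries, as did 19839 genes in all.

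RAW 264.7 is a mouse macrophage-like cell line, so the 3 libraries of a group are samples of a single line. Nothing in the labels ties them to separate cultures on separate days, and p-values measure the spread between these samples, which may be technical. Cells were grown in RPMI with 10% FBS, dosed once and harvested after 6 h. The SNP100 group received nonporous spheres of nominally 100 nm at 50 µg/mL, and the SNP50 group received nonporous spheres of nominally 50 nm at 25 µg/mL. The MSNP group (mesoporous, nominally 100 nm) and the HMSNP group (hollow mesoporous, nominally 100 nm) each received 200 µg/mL. The Control group received no particle. Doses were the highest nontoxic ones for each particle, so dose differs with particle type except between MSNP and HMSNP. The library names of each group also share a number that no other group has, and what that number marks, if anything, cannot be told apart from the treatment.

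IgG receptors bind antibody that coats a target. Activating receptors (Fcgr1, Fcgr3, Fcgr4) need the gamma chain Fcer1g, whose ITAM motif is phosphorylated by Src-family kinases and recruits Syk, whereas Fcgr2b carries an ITIM and recruits phosphatases. Complement receptor 3 (Itgam with Itgb2) and complement receptor 4 (Itgax with Itgb2) bind targets coated with C3 fragments, and C5ar1 and C3ar1 are G protein-coupled receptors for the soluble fragments C5a and C3a. Together they let a macrophage recognise and engulf opsonised particles.

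The libraries held 29369934 to 42617812 counts. All 7 macrophage markers were counted in every library, with a summed level of 12232 to 18371 CPM (counts scaled to library size), here without normalization factors. That sum was lowest with MSNP, at 12232 to 13002 CPM, against 15204 to 18371 CPM in the controls, and its part in the results below was not tested. Lyz2 and Csf1r carry most of the sum, and not all markers were lower. In normalized counts Cd68 was at 1536 CPM with MSNP against 957 CPM in the controls, and Mrc1 at 1.79 against 0.463 CPM. Of the other lists, the 4 mast cell markers were at 0 in every library, and the natural killer cell and fibroblast sums stayed at or under 0.0869 CPM. Neutrophil markers summed to 1.45 to 3.27 CPM, with Ly6g and S100a9 at 0. T cell markers summed to 4.43 to 7.91 CPM, B cell markers to 9.73 to 20.8 CPM, dendritic cell markers to 2.39 to 4.43 CPM and osteoclast markers to 44.7 to 61.6 CPM. The controls were not alike. The mean chi-square per gene between control libraries was 51.2 to 159, against at most 11.2 within any treated group. Control replicate 3 differed from the other controls along with exon length. The median log2 difference ran from 0.61 in the tenth of genes with the shortest exons to -0.60 in the tenth with the longest. Among the receptor genes it stood furthest off for Fcer1g (0.81 higher on the log2 scale) and Itgax (-0.87), and for the other 8 it lay between -0.28 and 0.32. Fcer1g has 1159 exon bases, and the tenth with the shortest exons had a median of 1563. Itgax has 4854, and the tenth nearest to it (median 5019) had a median difference of 0.08, so its value lay apart from that trend. The cause was not tested. Without that library the share of all tested genes called against Control was 5.16% for SNP100, 18.9% for SNP50, 29.5% for MSNP and 8.66% for HMSNP, so counts of calls without it, given below, are to be read against these shares.

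The genes lie on 5 chromosomes of GRCm39. Fcgr4 (1:170846466-170857330, plus strand), Fcgr2b (1:170786186-170804177, minus), Fcgr3 (1:170878738-170893549, minus) and Fcer1g (1:171057141-171062219, minus) sit on chromosome 1. Fcgr1 is at 3:96190225-96201338 (minus), C3ar1 at 6:122823393-122833122 (minus), C5ar1 at 7:15980668-15993465 (minus) and Itgb2 at 10:77366086-77401542 (plus). Itgam (7:127661808-127717753, plus) and Itgax (7:127728668-127749829, plus) are neighbours with 10914 bases between them. Fcgr2b shares exon sequence with Gm38204 on the opposite strand. Itgam shares most of its exons with the overlapping same-strand gene Gm49368, and 87.7% of the 150-base stretches of its transcript also occur in Gm49368. The counter's treatment of such shared exons is not given in the sources used here, and Gm49368 itself had 12 to 32 counts per library. Changes of Itgam between groups rest on 1340 to 2572 counts per library, but its level per length is uncertain.

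The stretch of 250 bases before the start of the GENCODE canonical transcript was read from GRCm39 for each gene and searched on both strands for 4 motifs. These were the PU.1 core GAGGAA, the GAS motif TTCNNNGAA, the ISRE core (GAAA, any 2 bases, GAAA) and the AP-1 motif TGANTCA, and none of the matches overlap. The PU.1 core occurred in 2 of the 10 genes (Fcer1g and Itgam), against 22.9% of 21757 promoters. GAS occurred in 2 (Fcgr1 and Fcgr4, against 7.7%), the ISRE core in 1 (Fcgr4, against 3.32%) and AP-1 in 2 (Itgax and C3ar1, against 6.18%). A match describes letters only, and no binding was measured. These 4 promoters are shown because their genes are the neighbouring integrin genes and the anaphylatoxin receptor genes, which moved apart under MSNP. They are Itgam (chr7:127661558-127661807, plus strand), Itgax (chr7:127728418-127728667, plus), C3ar1 (chr6:122833123-122833372, minus) and C5ar1 (chr7:15993264-15993513, minus). Each is written 5′ to 3′ on the strand of its gene, ends at the base before the canonical start, and has motif matches in capitals. For C5ar1 that start is 202 bases inside the gene bounds given above, since another transcript begins further out, and the same holds for Fcgr2b (481 bases) and Fcgr3 (6385 bases).
Itgam: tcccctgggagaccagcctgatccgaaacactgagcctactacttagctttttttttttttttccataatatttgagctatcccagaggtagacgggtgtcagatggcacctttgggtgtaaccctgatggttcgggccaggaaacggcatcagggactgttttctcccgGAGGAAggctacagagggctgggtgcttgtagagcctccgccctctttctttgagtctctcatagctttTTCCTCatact
Itgax: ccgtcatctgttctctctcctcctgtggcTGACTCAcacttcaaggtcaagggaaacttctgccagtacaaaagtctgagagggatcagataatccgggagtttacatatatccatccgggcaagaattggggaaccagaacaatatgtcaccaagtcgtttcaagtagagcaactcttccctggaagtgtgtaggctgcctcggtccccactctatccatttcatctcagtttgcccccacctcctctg
C3ar1: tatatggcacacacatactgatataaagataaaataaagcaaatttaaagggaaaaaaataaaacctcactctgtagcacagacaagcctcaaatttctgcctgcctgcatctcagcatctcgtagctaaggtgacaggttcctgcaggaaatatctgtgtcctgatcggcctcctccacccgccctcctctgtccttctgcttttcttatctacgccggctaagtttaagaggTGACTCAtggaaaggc
C5ar1: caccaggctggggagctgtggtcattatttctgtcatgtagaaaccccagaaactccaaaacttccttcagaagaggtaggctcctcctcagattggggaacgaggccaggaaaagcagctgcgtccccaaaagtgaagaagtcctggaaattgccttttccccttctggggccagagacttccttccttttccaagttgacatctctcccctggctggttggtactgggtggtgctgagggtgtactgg
In Itgam the capitals mark the PU.1 core at -80 to -75 and, on the opposite strand, at -11 to -6. In Itgax they mark an AP-1 motif at -221 to -215, and in C3ar1 an AP-1 motif at -16 to -10. The C5ar1 window held none of the 4 motifs.

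Levels were compared between genes as TPM, a count divided by exon length and then scaled to the sum of such values in the library. In the controls Fcer1g stood first at 1412 ± 321 TPM (SD, n = 3), followed by Itgb2 at 357 ± 80.9 TPM and C5ar1 at 238 ± 1.8 TPM. Fcgr1 followed at 127 ± 7.12 TPM and C3ar1 at 88.6 ± 18.3 TPM. The shared chains, the gamma chain and the integrin beta chain, were thus the most abundant of the set in these libraries. Fcgr2b was at 52.5 ± 4 TPM, Fcgr3 at 34.5 ± 3.14 TPM, Itgax at 13 ± 5.25 TPM and Fcgr4, the least abundant, at 5.21 ± 0.33 TPM. Itgam was at 48 ± 2.25 TPM over all its exons, overlapping Fcgr2b, and at 147 TPM over the exon length that Gm49368 does not share, so its place in the order is open to that choice. MSNP changed the order. There C3ar1 (120 ± 1.66 TPM) stood above C5ar1 (82.4 ± 2.79 TPM), which overlapped Fcgr1 (77.4 ± 3.16 TPM), and Fcgr3 (65.8 ± 1.68 TPM) stood above Fcgr2b (60.6 ± 2.65 TPM). In the HMSNP group C3ar1 (142 ± 6.95 TPM) overlapped Fcgr1 (133 ± 3.23 TPM), and Fcgr3 (53 ± 3.69 TPM) overlapped Fcgr2b (52 ± 2.68 TPM). These orders are descriptions with no test.

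**Figure D1:**
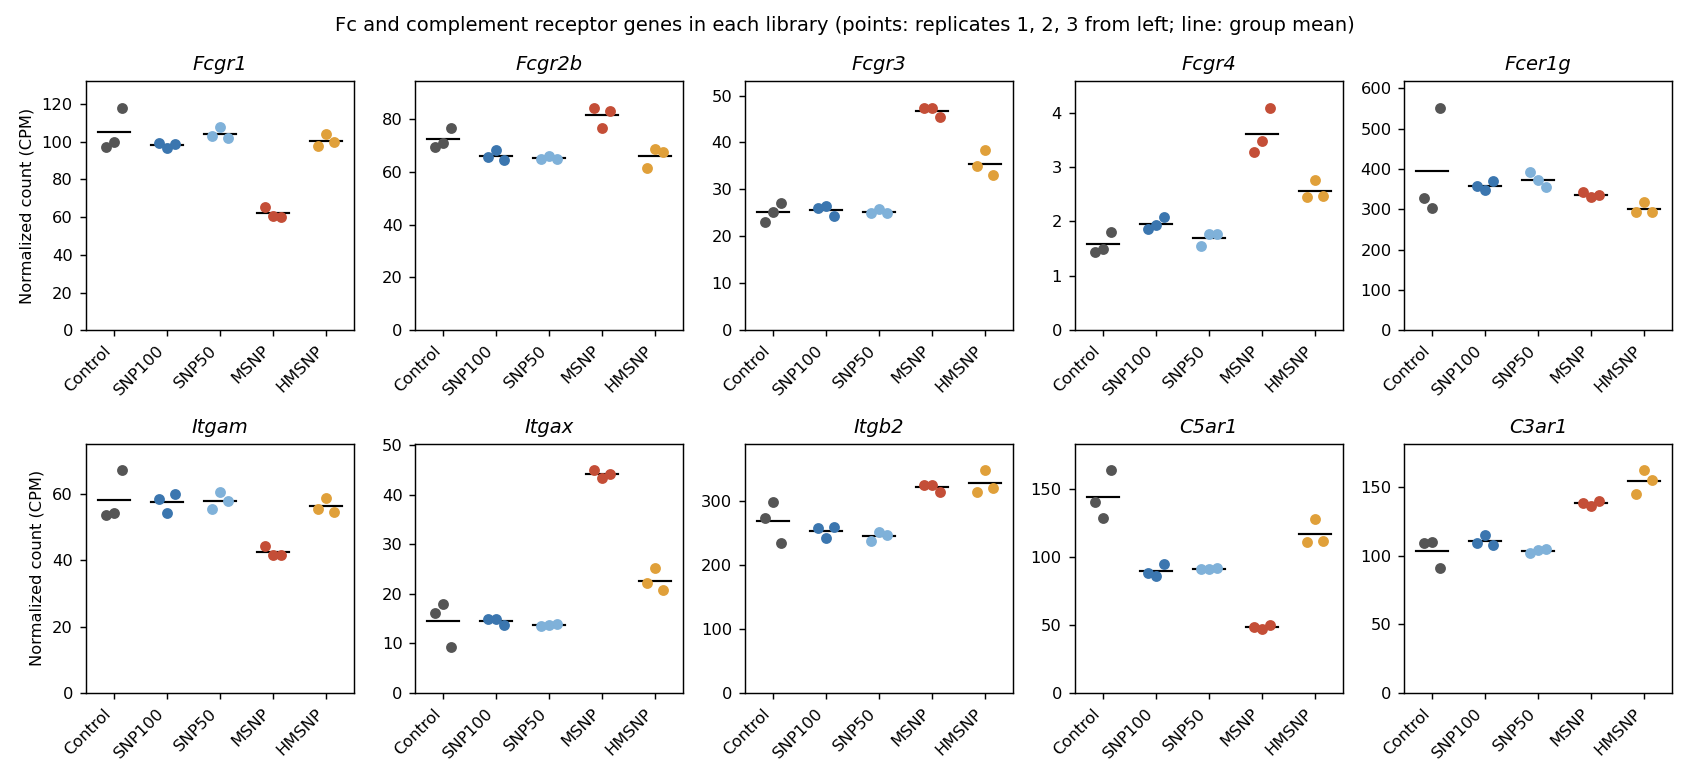
Normalized count in CPM (vertical axes, starting at 0, each panel with its own scale) of the 10 receptor genes in each of the 15 libraries, with 1 point per library and a line at each group mean. For Fcer1g the MSNP libraries lie among the controls, and for Fcgr2b the nearest MSNP and control libraries are both at 76.8 CPM. Control replicate 3 stands apart for Fcer1g (552 CPM) and Itgax (9.27 CPM).

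MSNP, the mesoporous particle, changed 8 of the 10 genes against the nontreated controls, and it moved them in both directions. Itgax, Fcgr4, Fcgr3, C3ar1 and Itgb2 were upregulated, while C5ar1, Fcgr1 and Itgam were downregulated. Over all tested genes 22.8% were called in this comparison, 11.8% higher and 11% lower, called meaning an adjusted p under 0.05 (edgeR, quasi-likelihood F test, adjusted by Benjamini and Hochberg). The median log2 fold change of the 10 genes was 0.21, against -0.05 over all tested genes, and the median absolute change was 0.61 against 0.36.

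Among the integrin chains, Itgax and Itgam moved apart. Itgax, the alpha chain of complement receptor 4, had 44.9, 43.3 and 44.2 CPM in MSNP replicates 1 to 3 and 16.1, 17.9 and 9.27 CPM in the controls. Every MSNP library was above every control, a 3.06-fold higher level (log2 fold change 1.62, SE 0.167, edgeR adjusted p = 3.17e-06). The low control is replicate 3, and without it the change was 1.38. Itgam, the alpha chain of complement receptor 3, had 44.3, 41.5 and 41.5 CPM with MSNP and 53.5, 54.1 and 67 CPM in the controls. Its libraries did not overlap either, and it fell by 0.46 on the log2 scale (SE 0.0852, edgeR adjusted p = 0.00097), or by 0.33 without control replicate 3. Itgb2, the beta chain that both share, had 325, 325 and 314 CPM against 274, 299 and 235 CPM, a log2 fold change of 0.26 (SE 0.078, edgeR adjusted p = 0.0274). That call held in 11 of 15 fits that left out 1 library, with 0.18 without control replicate 3. It was lost when the 6 libraries of the comparison were fitted alone (edgeR adjusted p = 0.194). Over all genes that fit called 1281 higher and 976 lower of 17389. The ratio of Itgax to Itgam raw counts within a library does not depend on normalization, and it was 1.01, 1.04 and 1.07 with MSNP. In the controls it was 0.301, 0.331 and 0.138.

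The IgG receptors also moved apart. Fcgr3, the low-affinity activating receptor, had 47.3, 47.4 and 45.4 CPM with MSNP and 23.1, 25.1 and 27.2 CPM in the controls, with no overlap. It was 1.86-fold higher (log2 fold change 0.89, SE 0.0758, edgeR adjusted p = 3.66e-07). Fcgr4, an activating receptor for IgG2 subclasses, had 3.27, 3.48 and 4.09 CPM against 1.43, 1.5 and 1.8 CPM. It was 2.28-fold higher (log2 fold change 1.19, SE 0.133, edgeR adjusted p = 6.78e-06), but from only 46 to 138 counts per library over the series. Fcgr1, the high-affinity receptor, went the other way, with 65.3, 60.4 and 60.3 CPM against 97.2, 100 and 118 CPM. It fell by 0.76 on the log2 scale (SE 0.0738, edgeR adjusted p = 1.53e-06). Fcgr2b, the inhibitory receptor, had 84.3, 76.8 and 83.2 CPM against 69.4, 70.9 and 76.8 CPM, which gave a log2 fold change of 0.17 (edgeR adjusted p = 0.0798). It passed the threshold in 3 of 6 other settings and 3 of 15 fits that left out 1 library, and its change against SNP100, below, was called. Fcer1g, the gamma chain needed by the activating receptors, had 343, 330 and 335 CPM, inside the controls' 303 to 552 CPM, and a log2 fold change of -0.23 (95% confidence interval -0.57 to 0.11). Without control replicate 3 that change was 0.10, so its direction rests on that library. As ratios of raw counts within a library, Fcgr3 to Fcgr1 was 0.725 to 0.784 with MSNP against 0.231 to 0.25 in the controls, and Fcgr3 to Fcgr2b was 0.546 to 0.616 against 0.332 to 0.354.

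The anaphylatoxin receptors moved in opposite directions. C5ar1, the C5a receptor, had 48.6, 46.9 and 50.4 CPM with MSNP against 141, 129 and 164 CPM in the controls, with no overlap. It fell by 1.58 on the log2 scale (SE 0.0883, edgeR adjusted p = 3.46e-09), or by 1.47 without control replicate 3. C3ar1, the C3a receptor, had 138, 136 and 140 CPM against 109, 110 and 91.3 CPM, a log2 fold change of 0.42 (SE 0.0737, edgeR adjusted p = 0.000606). The raw count ratio of C3ar1 to C5ar1 was 2.78 to 2.9 with MSNP and 0.555 to 0.855 in the controls. C5ar2, the second C5a receptor, belongs to the complement list and also fell, from 3.65 to 0.444 CPM (log2 fold change -3.05, edgeR adjusted p = 2.31e-09).

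**Figure D2:**
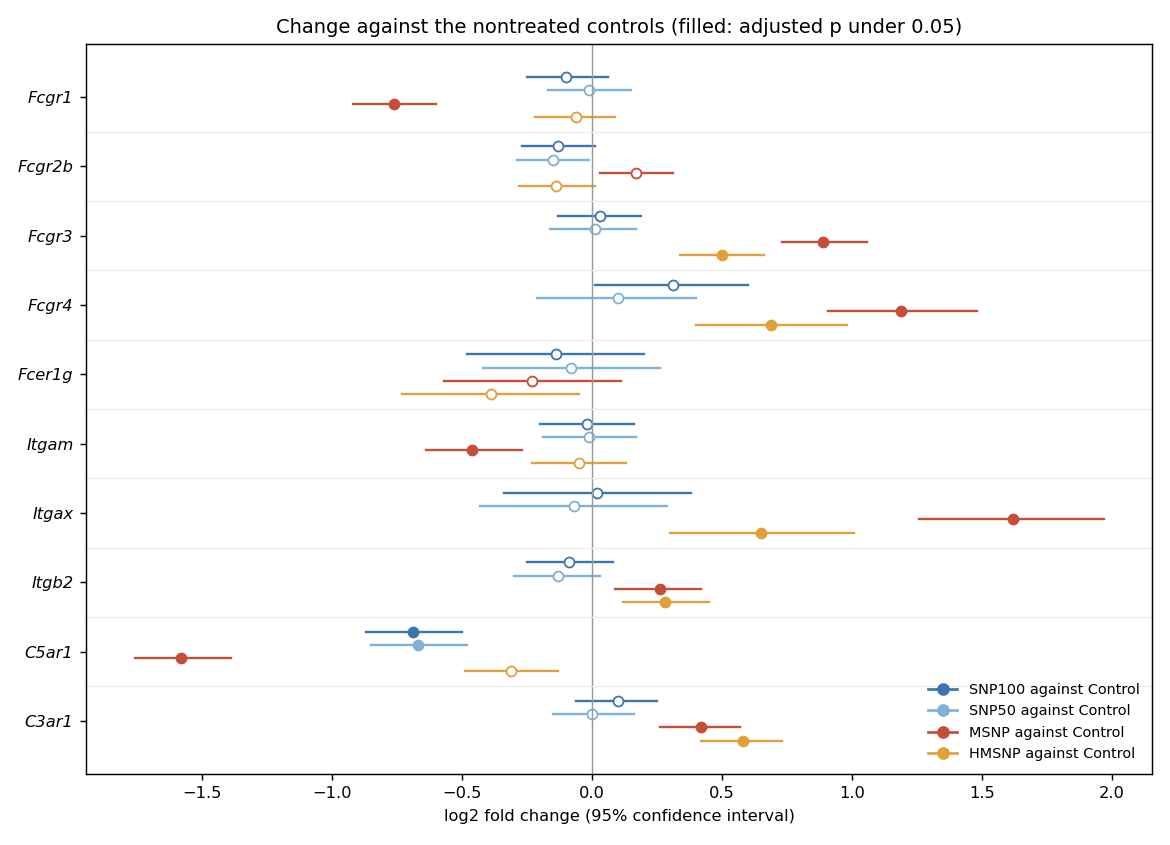
log2 fold change of each gene against the 3 nontreated controls (horizontal axis), with points for the 4 particle groups, bars for the 95% confidence interval and filled points where the edgeR adjusted p was under 0.05. The MSNP points spread from -1.58 (C5ar1) to 1.62 (Itgax), while for SNP100 and SNP50 C5ar1 is the filled point, at -0.69 and -0.67.

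The nonporous particles changed 1 gene of the set, C5ar1, and both changed it downwards. C5ar1 had 88.6, 86.1 and 95.1 CPM with SNP100 and 91.1, 91.2 and 91.9 CPM with SNP50, below the lowest control at 129 CPM. With SNP100 it fell by 0.69 on the log2 scale (SE 0.0862, edgeR adjusted p = 0.00127), where 0.912% of all tested genes were called, 0.509% higher and 0.403% lower. With SNP50 it fell by 0.67 (SE 0.0863, edgeR adjusted p = 0.00167), where 1.41% were called, 0.454% higher and 0.958% lower. Both comparisons use the same control libraries and are not independent of each other. The call held in all 15 fits that left out 1 library, with falls of 0.59 and 0.57 without control replicate 3. It was lost when the spread was estimated from the 6 libraries of the comparison alone, where C5ar1 was at -0.69 and -0.67. Over all genes that fit called 0 higher and 0 lower of 17598 with SNP100, and 0 higher and 1 lower of 17434 with SNP50.

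The other 9 genes stayed near the controls. Their log2 fold changes ran from -0.14 (Fcer1g) to 0.31 (Fcgr4) with SNP100, and from -0.15 (Fcgr2b) to 0.10 (Fcgr4) with SNP50. Fcgr4 had 1.87, 1.93 and 2.08 CPM with SNP100, just above the controls' 1.43 to 1.8 CPM, with a 95% confidence interval for the log2 fold change of 0.01 to 0.60. Its edgeR adjusted p did not pass the threshold in any fit. The median log2 fold change of the 10 genes was -0.05 with SNP100 and -0.04 with SNP50, against -0.02 and -0.00 over all tested genes. Without control replicate 3 the picture for SNP50 changed. Then 4 genes were called, where 18.9% of all tested genes were, with Fcer1g higher (log2 fold change 0.24) and Itgax (-0.31), Itgb2 (-0.23) and C5ar1 lower. With SNP100 the same omission left C5ar1 as the gene called, at -0.59.

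HMSNP, the hollow mesoporous particle, changed 5 of the 10 genes, all upwards, where 5.16% of all tested genes were called, 2.46% higher and 2.7% lower. C5ar1, below, was called lower in 2 of 6 other settings. C3ar1 had 145, 162 and 155 CPM against 109, 110 and 91.3 CPM in the controls. It was 1.49-fold higher (log2 fold change 0.58, SE 0.0737, edgeR adjusted p = 0.000277). Fcgr3 had 35, 38.3 and 33.1 CPM, above every control, and was 1.41-fold higher (log2 fold change 0.50, SE 0.0756, edgeR adjusted p = 0.00123). Fcgr4 had 2.44, 2.76 and 2.47 CPM and was 1.62-fold higher (log2 fold change 0.69, edgeR adjusted p = 0.00704). The calls for these 3 genes held in all 15 fits that left out 1 library, and were lost when the 6 libraries were fitted alone. Over all genes that fit called 17 higher and 60 lower of 17522.

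The integrin calls with HMSNP were close to the threshold. Itgax had 22.1, 25.2 and 20.7 CPM, above the controls' 9.27 to 17.9 CPM (log2 fold change 0.65, edgeR adjusted p = 0.035). Itgb2 had 315, 348 and 321 CPM, above the controls' 235 to 299 CPM (log2 fold change 0.28, edgeR adjusted p = 0.0494). The Itgax call held in 3 of 15 fits that left out 1 library and the Itgb2 call in 2 of 15. Without control replicate 3 both held, at 0.41 and 0.20. C5ar1 fell just short, with 111, 128 and 112 CPM against 129 to 164 CPM, and a log2 fold change of -0.31 (edgeR adjusted p = 0.0519). C5ar1 was called lower with DESeq2 (-0.29, DESeq2 adjusted p = 0.00937) and with the filterByExpr filter (-0.30). It was also called in 3 of 15 fits that left out 1 library, at -0.21 without control replicate 3. Fcgr1 (97.7, 104 and 100 CPM) and Itgam (55.4, 58.7 and 54.6 CPM) lay among the controls, with 95% confidence intervals of -0.22 to 0.09 and -0.23 to 0.13. Fcer1g had 294, 317 and 293 CPM, overlapping the controls (log2 fold change -0.39, -0.07 without control replicate 3). The median log2 fold change of the 10 genes was 0.12, against -0.04 over all tested genes.

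MSNP and HMSNP were given at the same dose, 200 µg/mL, and differ by the hollow core and, per the study, by surface composition. Their direct comparison uses no control library. HMSNP differed from MSNP in 7 of the 10 genes, where 20.2% of all tested genes were called. C5ar1 was 2.4-fold higher with HMSNP than with MSNP (log2 fold change 1.27, SE 0.0876, edgeR adjusted p = 4.39e-08), Fcgr1 was higher by 0.70 and Itgam by 0.41 on the log2 scale. These are the 3 genes that were lower with MSNP than in the controls, and both comparisons use the same MSNP libraries. Over all tested genes 9.22% were called higher and 11% lower with HMSNP. Itgax was lower with HMSNP (log2 fold change -0.96, SE 0.163, edgeR adjusted p = 0.000445), as were Fcgr4 (-0.50), Fcgr3 (-0.40) and Fcgr2b (-0.31). The Fcgr4 call was lost in 1 of 15 fits that left out 1 library, and the other 6 calls held in every fit. For Itgb2 the interval of the difference was -0.14 to 0.20, for C3ar1 0.00 to 0.32 and for Fcer1g -0.50 to 0.18, and none of these passed the threshold. With control replicate 3 left out of the shared estimate of the spread, C3ar1 (0.15) and Fcer1g (-0.17) were also called. In that fit 33.9% of all tested genes were called. The intervals above use the spread over all 15 libraries, controls included. With only the 6 libraries of the comparison, C3ar1 (0.17, edgeR adjusted p = 0.00491) and Fcer1g (-0.15, edgeR adjusted p = 0.00525) were called too. Over all genes that fit called 3577 higher and 3565 lower of 17460.

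MSNP against SNP100 sets mesoporous beside nonporous particles of the same nominal diameter, at 200 and 50 µg/mL, so porosity and dose cannot be told apart. Here 9 of the 10 genes were called, where 17.9% of all tested genes were. Itgax was 3.02-fold higher with MSNP (edgeR adjusted p = 4.86e-06). On the log2 scale Fcgr4 (0.88), Fcgr3 (0.87), Itgb2 (0.34), C3ar1 (0.32) and Fcgr2b (0.30) were higher too, against 10.4% of all genes called higher. C5ar1 (-0.89), Fcgr1 (-0.66) and Itgam (-0.44) were lower, against 7.53% called lower. All 9 calls held in every fit that left out 1 library and in all 6 other settings. Fcgr2b had 65.7, 68.3 and 64.5 CPM with SNP100, below all MSNP libraries (edgeR adjusted p = 0.0046). Fcer1g had 357, 347 and 370 CPM with SNP100, above all MSNP libraries, but its difference of -0.09 had an interval of -0.43 to 0.25. C5ar1 was thus lower with SNP100 than in the controls and lower again with MSNP.

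**Figure D3:**
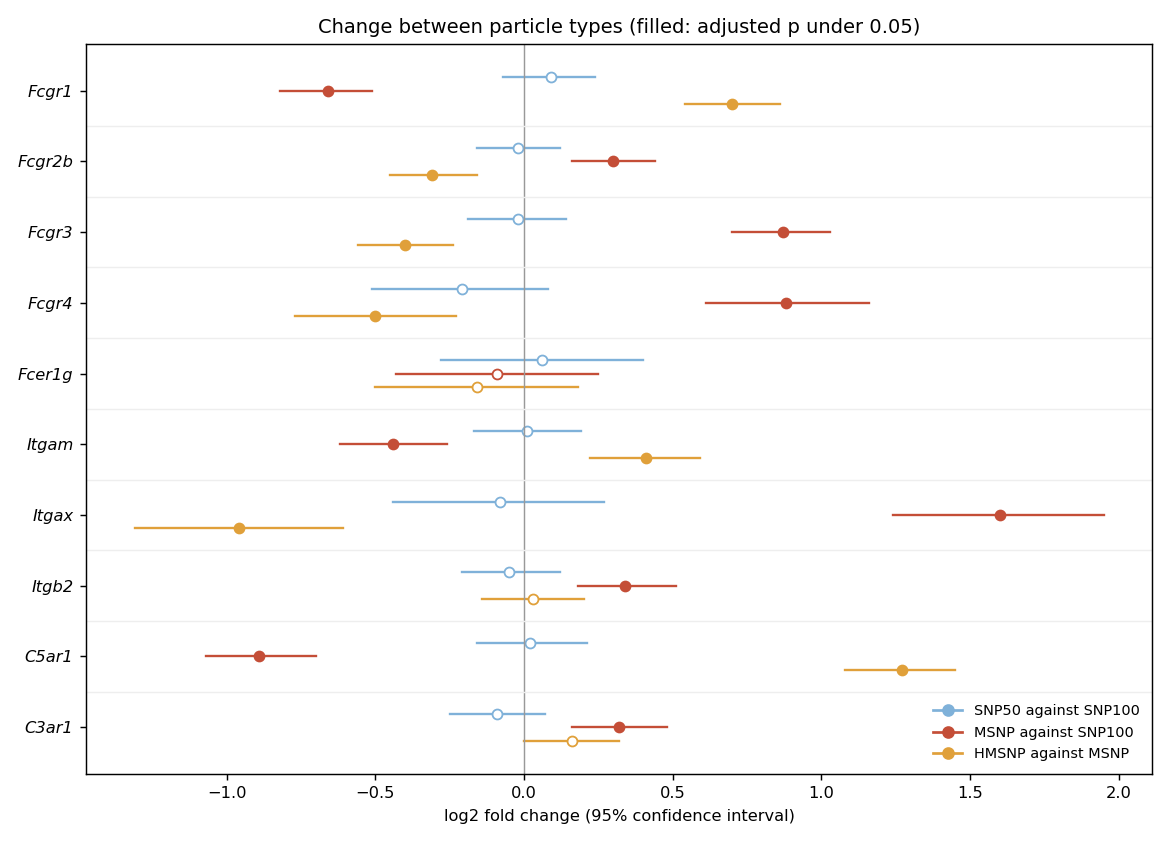
log2 fold change of each gene between particle groups (horizontal axis), with bars for the 95% confidence interval and filled points where the edgeR adjusted p was under 0.05. The SNP50 against SNP100 points are all open, from -0.21 (Fcgr4) to 0.09 (Fcgr1), and the HMSNP against MSNP points are filled for 7 genes.

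SNP50 against SNP100 compared nonporous particles of different nominal diameter, given at 25 and 50 µg/mL. None of the 10 genes was called by edgeR's quasi-likelihood test, as 0% of all tested genes were. At an unadjusted p under 0.05 edgeR gave 0 of the 10 and 867 of 19839 genes, and DESeq2 called 0 of the 10 and 1 gene in all. For C5ar1 the difference was 0.02 with a 95% confidence interval of -0.16 to 0.21, and for Fcgr1 it was 0.09 (-0.07 to 0.24). The widest intervals were those of Itgax (-0.44 to 0.27), Fcer1g (-0.28 to 0.40) and Fcgr4 (-0.51 to 0.08). These intervals use the spread over all 15 libraries, controls included. With only the 6 libraries of the comparison the SE was 0.0683 for Itgax and 0.0508 for Fcer1g. There 0 of the 10 genes were called as well, with 0 higher and 0 lower of 17502 tested genes.

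**Figure D4:**
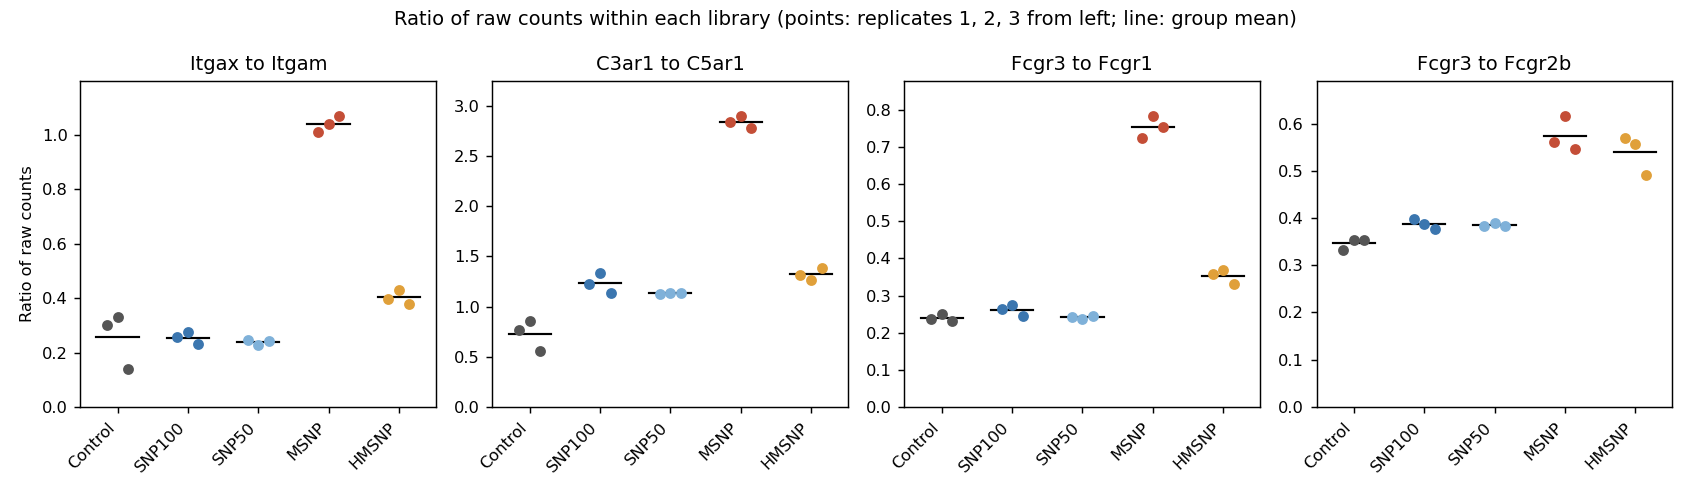
Ratio of the raw counts of 2 genes within each library (vertical axes, starting at 0), with 1 point per library and a line at each group mean. Itgax to Itgam is 1.01 to 1.07 in the MSNP libraries and at most 0.43 in any other, and C3ar1 to C5ar1 is 2.78 to 2.9 in the MSNP libraries and at most 1.38 elsewhere.

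Ratios within a library set the groups apart in another way. The mean Itgax to Itgam ratio was 0.257 in the controls, 0.255 with SNP100, 0.238 with SNP50, 0.403 with HMSNP and 1.04 with MSNP. The mean C3ar1 to C5ar1 ratio was 0.727 in the controls, 1.23 with SNP100, 1.13 with SNP50, 1.32 with HMSNP and 2.84 with MSNP. In every treated library it was above the highest control. With the nonporous particles that shift lay in C5ar1, and with HMSNP in both genes' levels. Fcgr3 to Fcgr2b, an activating over the inhibitory receptor, was 0.347 on average in the controls, 0.387 with SNP100, 0.386 with SNP50, 0.539 with HMSNP and 0.574 with MSNP. Exon lengths do not enter a ratio of the same genes across groups, but control replicate 3 gave the lowest Itgax to Itgam (0.138) and C3ar1 to C5ar1 (0.555) ratios of all.

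Across the 15 libraries some pairs of the genes rose and fell together, some ran opposite and others were weakly related. On the log2 CPM scale Pearson's r was 0.97 for Fcgr1 with Itgam, 0.95 for Fcgr3 with Fcgr4, 0.92 for Fcgr3 with Itgax and 0.91 for Itgb2 with C3ar1. It was -0.91 for Fcgr1 with Itgax and for Itgam with Itgax. Those are the strongest pairs. Among the weak ones, r was -0.32 for C5ar1 with C3ar1, -0.30 for Itgb2 with C5ar1 and 0.19 for Fcgr2b with C3ar1. The points share 5 groups of 3 libraries, so these values mostly repeat the group differences and carry no p. Of the genes with a mean of at least 1 CPM, those most like each receptor gene by r over the 15 libraries were as follows. Stx7, Ctsc and Pirb were most like Fcgr3, with r from 0.97 to 0.99, and Pirb is itself an inhibitory receptor with ITIMs. Atp6v0a1, a subunit of the vacuolar proton pump, and Lrsam1 (both 0.99) and Dnmt3a (0.98) were most like Itgax. Akr1b8 (0.99) and Smox (0.98) were among the 3 most like C5ar1. Susd3 (0.99), Lfng (0.98) and Agbl3 (0.98) were most like Fcgr1. Ucp2, Swsap1 and Fcgr1 (all 0.97) were most like Itgam. Nploc4 (0.99), Ap2a2 and Txnrd1 (both 0.98) were most like Itgb2, and Slc7a8 (0.97), Kitl and B4galt6 (both 0.96) most like C3ar1. Ppib, Tmem147 and Atp5pb (all 0.99) were most like Fcer1g. For Fcgr4 they were Pmpca (0.96), Bloc1s6 and Bid (both 0.95), and for Fcgr2b Tmem183a, Aktip (both 0.95) and Derl1 (0.93).

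The signaling genes downstream of these receptors changed with MSNP in both directions as well. Of 33 genes of ITAM and ITIM signaling, all tested, 13 rose and 9 fell, with a median log2 fold change of 0.18 against -0.05 over all genes. Over all tested genes 11.8% were called higher and 11% lower. Vav3, a guanine nucleotide exchange factor, rose from 24.5 to 69.7 CPM (log2 fold change 1.51, edgeR adjusted p = 7.70e-06), and Gab2, a docking adaptor, rose from 27.2 to 72.1 CPM (1.41). Fgr, a Src-family kinase of myeloid cells, fell from 48.5 to 12.5 CPM (log2 fold change -1.96, edgeR adjusted p = 1.25e-10), and Dok2, an adaptor that restrains signaling, fell from 75.9 to 35.6 CPM (-1.09). The next 4 were picked after their values were seen, for their place next to the receptors. Syk, the kinase that binds the phosphorylated ITAM, rose from 122 to 243 CPM (edgeR adjusted p = 2.80e-05). Ptpn6, which encodes the phosphatase SHP-1, fell from 363 to 184 CPM (-0.98, edgeR adjusted p = 1.00e-08), while Inpp5d, which encodes the phosphatase SHIP1 of the Fcgr2b pathway, was at 252 against 296 CPM and did not pass. Tyrobp, an ITAM adaptor like Fcer1g, was at 391 against 433 CPM and did not pass.

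With HMSNP 7 of the 33 rose and 1 fell, with a median log2 fold change of 0.21. Over all tested genes 2.46% were called higher and 2.7% lower with HMSNP. Src (0.52, edgeR adjusted p = 0.00555) and Dok2 (0.50) rose, and Dok3 (-0.51) fell. Between HMSNP and MSNP 22 of the 33 were called, 11 in each direction, against 9.22% higher and 11% lower over all tested genes. Fgr was the gene called with SNP100 (log2 fold change -0.45, edgeR adjusted p = 0.00648) and with SNP50 (-0.43, edgeR adjusted p = 0.00947). Over all tested genes 0.912% were called with SNP100 and 1.41% with SNP50. The shares of each comparison apply to the lists below as well. The ITAM and ITIM list was sensitive to control replicate 3. Without it, 3 genes rose and 4 fell with SNP100, 6 rose and 7 fell with SNP50, 15 rose and 13 fell with MSNP, and 11 rose and 1 fell with HMSNP. Calls over all tested genes rose as well, to the shares given above.

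**Figure D5:**
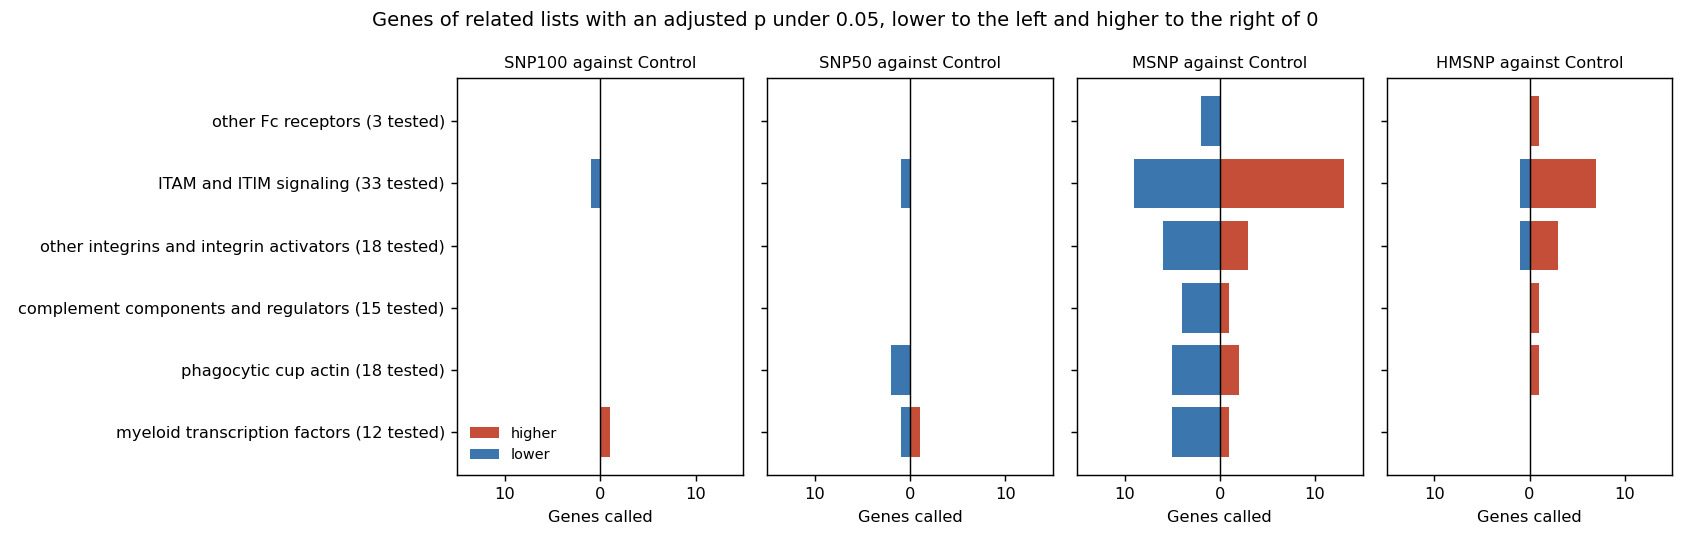
Number of genes with an edgeR adjusted p under 0.05 (horizontal axis) in 6 lists of related genes, lower than the controls to the left of 0 and higher to the right, for each particle group. MSNP called 13 higher and 9 lower of the 33 ITAM and ITIM signaling genes, against 11.8% higher and 11% lower over all tested genes. With all controls in the fit SNP100 and SNP50 called at most 2 of any list. With control replicate 3 left out, SNP50 called 13 of those 33 ITAM and ITIM genes and 18.9% of all tested genes.

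Other integrins and their activators, all 18 tested, gave 3 higher and 6 lower with MSNP, against 11.8% and 11% of all tested genes. Itgb3, a beta chain that pairs with Itgav, rose from 2.21 to 29.9 CPM (log2 fold change 3.76, edgeR adjusted p = 2.38e-10). Itgav itself fell from 500 to 144 CPM (-1.80), and Itgb5, another beta chain, from 281 to 132 CPM (-1.08). Tln1, which encodes the integrin activator talin, rose from 845 to 1623 CPM (0.94). With HMSNP 3 rose, among them Itga6 (0.73) and Itgb3 (0.63), and 1 fell, Itgb5 (-0.45). With SNP100 and SNP50 edgeR called 0 of the 18, with 3 and 4 at an unadjusted p under 0.05. The counts without control replicate 3 were 1 higher and 4 lower with SNP100, 2 higher and 7 lower with SNP50, 3 higher and 7 lower with MSNP and 3 higher and 2 lower with HMSNP, where Itgb3 (0.40) was no longer called.

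Of 20 complement components and regulators 15 were tested, and with MSNP 1 rose and 4 fell, against 11.8% and 11% of all tested genes. C1qa, a chain of C1q, fell from 2.37 to 1.06 CPM (log2 fold change -1.17, edgeR adjusted p = 0.00587), beside C5ar2 above. With the nonporous particles edgeR called 0, with 3 and 1 at an unadjusted p under 0.05. When control replicate 3 was left out, 2 rose and 5 fell with MSNP, 1 fell with SNP100, and 1 rose and 1 fell with SNP50. Of 11 other Fc receptors 3 were tested. Fcgrt, the neonatal Fc receptor, fell with MSNP from 11.6 to 8.25 CPM (-0.49, edgeR adjusted p = 0.0298), as did Trim21, a cytosolic antibody receptor (-0.41). The Fcgrt call was lost without control replicate 3 (-0.21, edgeR adjusted p = 0.0726), and the Trim21 call was not (-0.45). Fcrl1, an Fc receptor-like gene, rose with HMSNP (0.43, edgeR adjusted p = 0.000824).

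Of 18 genes of the actin machinery of the phagocytic cup, 2 rose and 5 fell with MSNP. The shares over all tested genes were 11.8% higher and 11% lower. Wipf1 (0.66) and Elmo1 (0.54) rose, and Vasp (-1.06) and Myo10 (-0.91) fell. With HMSNP 1 rose, Wasf2 (0.46), with SNP50 2 fell, Arpc2 (-0.44) and Vasp (-0.41), and with SNP100 edgeR called 0, with 3 at an unadjusted p under 0.05. Without control replicate 3, 4 rose and 8 fell with SNP50, 2 fell with SNP100, 2 rose and 7 fell with MSNP, and 2 rose and 1 fell with HMSNP. Of 12 myeloid transcription factors, 1 rose and 5 fell with MSNP, against the same shares of all tested genes. Jun rose from 57.9 to 159 CPM (log2 fold change 1.46, edgeR adjusted p = 1.94e-10) while Fos, its partner in AP-1, fell from 104 to 10.1 CPM (-3.37, edgeR adjusted p = 1.11e-11), and Mitf fell as well (-1.43). Jun also rose with SNP100 (0.45) and SNP50 (0.54), where Tfe3 fell (-0.25). With HMSNP edgeR called 0 of the 12, with 3 at an unadjusted p under 0.05. Without control replicate 3, 1 rose and 4 fell with SNP100, 4 rose and 3 fell with SNP50, 2 rose and 5 fell with MSNP, and 1 rose with HMSNP. Spi1, which encodes PU.1, was at 282 CPM with MSNP against 339 CPM in the controls, with a 95% confidence interval of -0.53 to 0.00 and an edgeR adjusted p of 0.145.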

How the data were processed

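RNA was sequenced from 15 libraries, poly(A)-selected and directional. The authors deposited a single table of raw counts per gene, made with cutadapt 1.16, STAR 2.7.9a and featureCounts 1.6.3 on GRCm39 per the submitters' processing notes; the counts carry no normalization, and strand and multimapping settings are not given in the sources used here. Groups were taken from the sample labels. Genes whose counts over all libraries summed to 10 or more entered the test, made with edgeR 4.0.16 (quasi-likelihood F test after TMM) in R 4.3.3, in 1 model over 15 libraries without covariates, with Benjamini-Hochberg adjustment over all 19839 genes. The model was run on simulated counts with the same spread in every group. That run cannot show how the model behaves with controls as unlike each other as these. CPM were computed from counts with TMM library sizes, TPM from exon lengths of GENCODE mouse release 39, in which 56630 of 57186 identifiers were found, and log2 CPM for correlations with a prior count of 2. The alternatives were DESeq2 1.42.0 (the tool of the study), RLE normalization, other filters, a replicate block, separate fits and leaving out each library. The receptor genes and the lists were chosen with earlier results of these data known. Named from each list were up to 2 genes per direction with the largest change among those called at a mean of at least 1 CPM. Some genes that met this rule or were among the most alike are not reported here.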

Additional observations from a re-analysis of the deposited data

How the results depend on the processing

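The number of receptor genes called stayed within 1.5 times the reported count in all 21 other fits for MSNP against Control and for the comparisons between particles. It moved further in 1 of 21 for SNP100, 2 of 21 for SNP50 and 11 of 21 for HMSNP against Control. When only the 6 libraries of a comparison were fitted, 0 receptor genes were called for SNP100, SNP50 and HMSNP against Control, against 1, 1 and 5. For MSNP against Control the Itgb2 call was lost in that fit. Over all tested genes that fit called 0 higher and 0 lower for SNP100, 0 and 1 for SNP50, and 17 and 60 for HMSNP. It has fewer samples to estimate the spread, and the controls were the most spread group, but the cause of the lost calls was not tested. Leaving out 1 library at a time gave 1 to 1 genes for SNP100, 1 to 4 for SNP50 (4 without control replicate 3), 7 to 9 for MSNP and 3 to 7 for HMSNP against Control (7 without control replicate 2, where 25.2% of all tested genes were called). It gave 0 to 0 for SNP50 against SNP100, 9 to 9 for MSNP against SNP100 and 6 to 9 for HMSNP against MSNP. The count of 9 for HMSNP against MSNP came without control replicate 3, where 33.9% of all tested genes were called. For HMSNP against Control the count of 3 came from losing Itgax and Itgb2; the cause was not tested.

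Of 420 values of single receptor genes under the other settings, 398 kept direction and side of the threshold, 11 fell below it, 7 passed it and 4 changed sign. Of 1050 values with 1 library left out, the counts were 975, 29, 12 and 34. The sign changed for 16 of 70 values, none of them called and none over 0.23 in size. Without the filter on low counts Itgam was at 9.0e-05 with SNP100 and 0.0022 with SNP50. C3ar1 with SNP50 was at -0.0016 with the filterByExpr filter and -9.3e-05 with only the 6 libraries. With 1 library left out, against Control, the values for SNP100 ran from -0.0034 to 0.09 for Fcgr3, -0.29 to 0.18 for Fcer1g, -0.07 to 0.09 for Itgam and -0.22 to 0.21 for Itgax. For SNP50 they ran from -0.04 to 0.07 for Fcgr1, -0.03 to 0.06 for Fcgr3, -0.24 to 0.24 for Fcer1g, -0.06 to 0.10 for Itgam, -0.31 to 0.12 for Itgax and -0.08 to 0.06 for C3ar1. They ran from -0.38 to 0.10 for Fcer1g with MSNP, and with HMSNP from -0.09 to 0.03 for Fcgr1 and -0.08 to 0.06 for Itgam. Between particles they ran from -0.04 to 0.04 for Itgam and -0.01 to 0.07 for C5ar1 (SNP50 against SNP100) and from -0.02 to 0.07 for Itgb2 (HMSNP against MSNP). The Fcer1g value of 0.24, without control replicate 3, was called.

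The replicate numbers share only a name. Same-numbered libraries correlated at -0.13 to 0.12 in their deviations from the group means, over 0.1 in 2 of 30 pairs. With a replicate block 4 genes were called for HMSNP against Control, with Itgb2 at an edgeR adjusted p of 0.0594, and 8 for MSNP against Control. The block changed no other call among the receptor genes. Fcgr4, at 46 to 138 counts per library, is the gene whose precision depth limits most.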
